A study of Mus musculus with 2 samples.

Results

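The strand opposite to protein-coding genes was examined for Mbnl2 tags in mouse quadriceps muscle. Antisense regions were taken as the bases opposite to a protein-coding gene body of the GENCODE vM1 annotation of mm9, wherever no gene of any type was annotated on that opposite strand. They formed 24120 intervals covering 962 Mb, with a median length of 15217 nt, and made up 18.8% of the assembled bases counted on both strands. At least 1 such interval was present for 21540 of 22380 protein-coding genes. A tag, meaning 1 unique sequenced RNA fragment, was a member when its midpoint lay in such an interval, and tags of which at least 70% were 1 reference base were left out. This gave 29686 antisense tags among 188620 retained WT tags and 44458 among 392610 retained Mbnl1 KO tags.

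The libraries came from WT and Mbnl1-/- (Mbnl1 KO) mice aged 15 to 16 weeks, which the labels give as C57BL/6. The methods of the study give a mixed background for the heterozygotes crossed to make its compound knockouts. The Mbnl1 KO allele (ΔE3) removes Mbnl1 in the whole animal, not only in muscle fibres, and Mbnl2 was present in both genotypes. The study reports more Mbnl2 protein in Mbnl1 KO skeletal muscle than in WT. It also reports a stronger immunopurified Mbnl2 band from Mbnl1 KO quadriceps. Mice of each genotype (n = 3) had been merged by the authors into 1 table, so the spread between mice could not be measured and no test between genotypes was possible. All intervals given here are 95% exact intervals (Clopper-Pearson for shares and ratios, Poisson for densities) that cover counting error only. The tables differed in depth and in composition, since 44.1% of the WT tags on assembled chromosomes and 17.0% of the Mbnl1 KO tags were left out as single-base tags. As a check of the tissue, 9 of 10 skeletal muscle markers had measurable regions, and these genes carried a median of 188 tags on their own strand over both tables, against 18.5 for 10 markers of other cells. Among the latter the collagen gene Col1a1 carried the most, with 121 WT and 453 Mbnl1 KO tags.

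Mbnl proteins are zinc finger RNA-binding proteins that regulate alternative splicing, mRNA localisation and stability, and they prefer short pyrimidine-GC-pyrimidine motifs, called Mbnl motifs here. In DNA letters these read TGCT as well as TGCC when they begin with thymine, and CGCT as well as CGCC when they begin with cytosine. HITS-CLIP crosslinks such a protein to the RNA it touches, immunopurifies it and sequences the attached fragments with their strand. Tags opposite to a gene can therefore come from RNA transcribed there, including unannotated transcripts, read-through of a neighbouring gene and pseudogenes. They can also be fragments of another RNA placed at a similar sequence, or reads of no RNA of the tissue, so this strand is often used as a guide to background in CLIP libraries.

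Runs of overlapping tags with at least 20 tags over both tables are called clusters here. The most frequent tag sequence of each of the 10 largest antisense clusters is shown first because these are the places where antisense tags pile up. Sequences are reference bases of mm9 on the tag strand, 5′ to 3′, named by the protein-coding gene on the other strand, and capitals mark the Mbnl motifs.
Gnb1l (chr16:18533334-18533364, minus): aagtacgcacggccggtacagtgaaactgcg
Atf2 (chr2:73705954-73705984, plus): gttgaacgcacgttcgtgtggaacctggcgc
Zc3h7a, first cluster (chr16:11144388-11144407, plus): cagctccctCGCTgcgatct
Itga9 (chr9:118584071-118584101, minus): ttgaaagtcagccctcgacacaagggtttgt
Jarid2 (chr13:44964958-44964979, minus): CGCTcatcagaccccagaaaag
Zc3h7a, second cluster (chr16:11144075-11144105, plus): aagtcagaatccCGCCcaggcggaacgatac
Fgfr2 (chr7:137978090-137978120, plus): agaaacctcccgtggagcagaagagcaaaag
Arhgap21 (chr2:20821686-20821716, plus): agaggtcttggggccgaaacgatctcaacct
Manba (chr3:135188364-135188385, minus): aagcaggtctgacctTGCTttc
Cadps2 (chr6:23469765-23469795, plus): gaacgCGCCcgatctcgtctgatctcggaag

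A second kind of cluster shared a purine run instead. For these the capitals mark the purine 8-mers described further on, and each sequence had a single copy in the assembly.
Kcnk16 (chr14:21083356-21083376, plus): gggggGGAGGGAGGACGATGc
Ak8 (chr2:28642184-28642203, minus): tGGGAGGACGAGGcgaaaag
Nos1 (chr5:118307025-118307044, minus): AGGGAGGAGGATGgggatgg
Lpxn (chr19:12889910-12889930, minus): agggagaAGGGAGGACGATGa

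Antisense tags were sparser than tags on the gene strand and about as dense as tags between genes. The WT table held 30.9 antisense tags per Mb (interval 30.5 to 31.2), 62.6 tags per Mb on the gene strand of the same intervals (62.1 to 63.1) and 29.3 tags per Mb of intergenic strand (29.1 to 29.5). The Mbnl1 KO table held 46.2 antisense tags per Mb (45.8 to 46.6), 175 on the gene strand (175 to 176) and 49.9 between genes (49.6 to 50.1). The gene strand was thus 2.03 times as dense as the antisense strand in WT and 3.80 times as dense in Mbnl1 KO. The antisense density was 1.05 times the intergenic density in WT and 0.926 times in Mbnl1 KO.

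**Figure D1:**
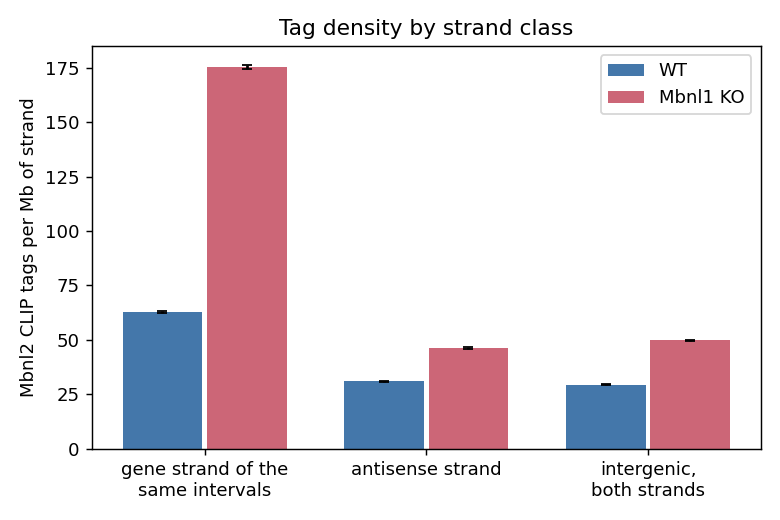
Mbnl2 CLIP tags per Mb of strand (y axis, from 0) on the gene strand, on the antisense strand of the same intervals and between genes (x axis), for the WT and Mbnl1 KO tables. Bars are the value of 1 merged table of 3 mice and error lines are 95% Poisson intervals. The antisense bars (30.9 and 46.2) stand close to the intergenic bars (29.3 and 49.9) in both tables, and the gene strand bars (62.6 and 175) stand above them.

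Antisense tags made up 33.0% of the tags on both strands of these intervals in WT (interval 32.7 to 33.3) and 20.8% in Mbnl1 KO (20.67 to 21.02). Because each share is taken within 1 table, it does not depend on how the tables are scaled. Relative to the retained tags of each table, the Mbnl1 KO/WT ratio was 0.719 on the antisense strand (0.709 to 0.730), 0.818 between genes (0.811 to 0.825) and 1.35 on the gene strand (1.33 to 1.36). These ratios depended on the denominator. The antisense ratio was 1.08 when scaled to all tags of the table and 1.498 with raw tags, and the intergenic ratio was 1.23 and 1.70, so no direction is drawn from either. The gene strand ratio was 2.02 and 2.80. Counted as reads rather than unique tags, the antisense strand held 11.6% of the reads of both strands in WT and 5.12% in Mbnl1 KO.

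The antisense share fell with the number of reads behind a tag. Tags seen as 1 read were antisense in 39.96% of cases in WT and 29.6% in Mbnl1 KO. Among tags collapsed from 21 to 100 reads it was 11.1% and 6.70%, and above 100 reads it was 9.99% and 5.32%. Of the antisense tags, 79.2% in WT and 68.9% in Mbnl1 KO rested on 1 read, against 58.6% and 43.2% on the gene strand.

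Short tags were also antisense more often. At 20 to 21 nt the antisense share was 38.9% in WT and 33.1% in Mbnl1 KO. It fell to 12.3% and 11.0% at 26 to 28 nt, where the intervals of both tables overlap, and stood at 16.2% and 7.86% at 31 nt and above. Tags of 29 to 30 nt broke the order with 36.6% in WT (192 antisense tags) and 21.7% in Mbnl1 KO (461 antisense tags). Adenine made up 50.8% of the bases of those WT antisense tags and 34.1% of the Mbnl1 KO ones, against 27.0% and 21.9% at 26 to 28 nt. At 31 nt and above it was 48.8% and 27.2%.

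**Figure D2:**
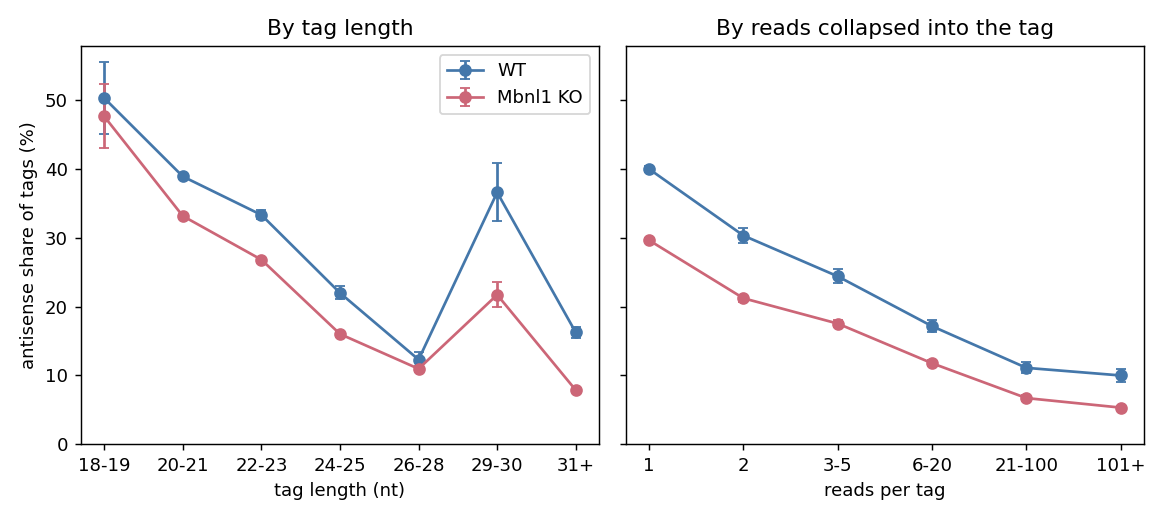
Antisense share of tags on both strands (y axis, percent) by tag length in nt (left) and by reads collapsed into the tag (right), for the WT and Mbnl1 KO tables. Points are single merged tables with 95% Clopper-Pearson intervals. The share falls from 39.96% to 9.99% in WT and from 29.6% to 5.32% in Mbnl1 KO as reads increase, and tags of 29 to 30 nt stand above their neighbours.

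Base composition moved with the share as well. Tags whose commonest base made up under 40% of their length were antisense in 25.8% of cases in WT and 16.0% in Mbnl1 KO. Just inside the single-base limit, at 60 to 69%, the antisense share was 51.8% in WT (4116 antisense tags) and 39.2% in Mbnl1 KO (3407). Just outside it, at 70 to 79%, the share was 56.6% (5138) and 48.7% (3637). The limit therefore cut through a continuous change, and antisense tags outnumbered gene-strand tags in WT on both sides of it.

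Most antisense tags lay alone. Of the antisense tags, 74.0% in WT and 72.2% in Mbnl1 KO overlapped no other retained tag, against 50.3% and 36.1% on the gene strand and 74.9% and 68.9% between genes. Across the 19 autosomes the antisense density ran from 28.97 to 34.2 tags per Mb in WT, with a median of 30.7. In Mbnl1 KO it ran from 41.5 to 53.0, with a median of 46.5. Few antisense tags mirrored a tag on the other strand. Of all antisense tags, 0.950% in WT and 1.02% in Mbnl1 KO overlapped a retained tag of either table on the opposite strand by at least 1 nt. The values were 0.425% and 0.467% for gene-strand tags and 0.557% and 0.598% for intergenic tags. Antisense tags face the denser gene strand, so a higher share was favoured in advance and nothing is read from the order.

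Antisense density varied less with what the gene carried opposite to the tag than gene-strand density did. Introns took up 92.5% of the antisense regions and 92.4% of WT and 92.2% of Mbnl1 KO antisense tags lay opposite them. Opposite introns the density was 30.8 tags per Mb in WT and 46.0 in Mbnl1 KO. Opposite 3′ UTRs, where the gene strand was densest (518 tags per Mb in WT and 2203 in Mbnl1 KO), the antisense density was 30.3 in WT and 44.0 in Mbnl1 KO. The antisense share there was accordingly the lowest of all features, 5.53% in WT and 1.96% in Mbnl1 KO, against 39.7% and 30.3% at introns. Opposite coding sequence the density was 28.95 in WT (27.2 to 30.8) and 50.05 in Mbnl1 KO (47.7 to 52.5).

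Opposite 5′ UTRs the density was higher, at 49.4 tags per Mb in WT (43.5 to 55.8, 257 tags) and 64.6 in Mbnl1 KO (57.9 to 71.9, 336 tags). Of these, 117 WT and 70 Mbnl1 KO tags held a purine 8-mer of the kind described further on. Without them the density was 26.9 in WT (22.6 to 31.8) and 51.1 in Mbnl1 KO (45.2 to 57.7), and over all antisense regions it was 26.4 and 44.6. Without these tags the WT interval thus included the value over all regions, and in Mbnl1 KO the interval remained just above it. With the clusters left out as well the Mbnl1 KO density was 46.3 (40.7 to 52.6), and this interval includes the corresponding 43.7 over all regions. Most of the purine 8-mers were collected through the WT table alone. A larger fall in WT was therefore favoured by their choice, and no contrast between the tables is read.

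Genes with many tags on their own strand carried few more antisense tags per base. The 12993 genes with at least 10 kb of antisense region were ordered by their pooled gene-strand tags per kb and cut into 5 equal groups. From the lowest to the highest group the gene-strand density rose 11.6-fold in WT and 26.7-fold in Mbnl1 KO, which the ordering itself fixes. The antisense density of the same genes was 27.8 tags per Mb in the lowest and 31.8 in the highest group in WT, a ratio of 1.15. In Mbnl1 KO it was 44.1 and 46.5, a ratio of 1.05.

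**Figure D3:**
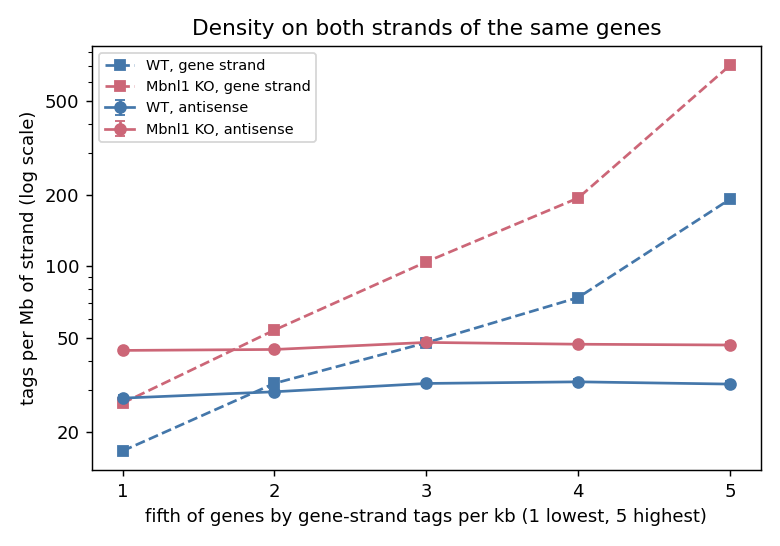
Tags per Mb of strand (y axis, log scale) on the antisense strand (circles, solid lines, 95% Poisson intervals) and on the gene strand (squares, dashed lines) for genes in 5 equal groups by gene-strand tags per kb (x axis). Gene-strand values rise with the ordering, while antisense values stay between 27.8 and 32.5 in WT and between 44.1 and 47.7 in Mbnl1 KO.

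A place where antisense tags were dense was the first kb past the end of a gene lying on the antisense strand itself. There the density was 61.1 tags per Mb in WT (54.9 to 67.9, 346 tags) and 162 in Mbnl1 KO (152 to 173, 919 tags). From 1 to 5 kb there were 32.7 per Mb in WT and 56.6 in Mbnl1 KO, and beyond 50 kb it was 30.3 and 43.8. The Mbnl1 KO/WT ratio, scaled to retained tags, was 1.28 in the first kb (1.13 to 1.45) and 0.694 beyond 50 kb (0.681 to 0.706). Scaled to all tags these were 1.91 and 1.04, and with raw tags 2.66 and 1.44, so no direction is drawn from the value beyond 50 kb. Without clusters of at least 20 tags the first kb still held 51.1 tags per Mb in WT (45.3 to 57.3, 289 tags) and 120 in Mbnl1 KO (111 to 130, 680 tags). Part of the first-kb ratio thus rested on clusters. The ratio without them was not computed, so no direction is drawn from the first kb either.

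**Figure D4:**
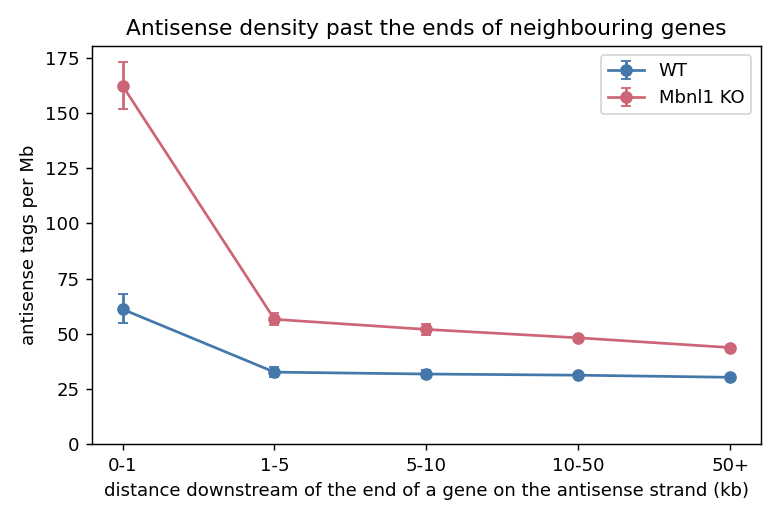
Antisense tags per Mb (y axis, from 0) by distance downstream of the end of the nearest gene on the antisense strand (x axis, kb), for the WT and Mbnl1 KO tables with 95% Poisson intervals. The first kb holds 61.1 and 162 tags per Mb, and the density beyond 50 kb is 30.3 and 43.8.

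Of the 1265 pooled tags in that first kb, 37.9% followed a pseudogene, 32.5% a protein-coding gene and 15.7% a microRNA gene. The microRNA tags lay mostly past 2 loci, mmu-mir-689-2 with 12 WT and 81 Mbnl1 KO tags and AC115697.1 with 19 and 44. Clusters opposite Zc3h7a (12 and 81, 123 nt past a gene end) and Fgfr2 (20 and 44, 68 nt past) have nearly these counts. Their sequences are read as ribosomal RNA further on, which was not checked. Of the 479 tags past pseudogenes, the largest groups followed Gm9329 (8 WT and 55 Mbnl1 KO), Gm15662 (15 and 27) and Gm17138 (4 and 38). Clusters opposite Manba (5 and 30, and 2 and 21) and Gm10874 (4 and 25) also lay in this first kb and had copies in other genes. The origin of these tags was not tested. Among protein-coding genes Fxr1, which encodes an RNA-binding protein of the fragile X family, had the most, with 1 WT and 26 Mbnl1 KO tags. The first kb before the start of a gene on the antisense strand held 39.8 tags per Mb in WT (35.0 to 45.1) and 62.3 in Mbnl1 KO (56.3 to 68.8). Without purine tags it held 29.1 in WT (24.99 to 33.6), which includes the 26.4 over all regions, and 55.6 in Mbnl1 KO (49.9 to 61.7), above the 44.6 over all regions. With clusters left out as well, the values were 25.7 (21.9 to 30.0) and 48.3 (43.0 to 54.1), and both intervals include those over all regions, 26.1 and 43.7. As most purine 8-mers were collected through the WT table alone, no contrast between the tables is read here either.

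Mbnl motifs were more frequent around antisense tags than in antisense regions at large. In windows of 51 nt centred on the tag, 44.3% of WT antisense tags (43.7 to 44.9) and 54.3% of Mbnl1 KO antisense tags (53.8 to 54.8) held at least 1 of the 4 motifs on the tag strand. Of all 51 nt windows tiled over the antisense regions, 37.3% did. The gene strand gave 60.5% in WT and 65.7% in Mbnl1 KO, and intergenic tags 45.1% and 55.2%. Read on the other strand of the same windows, the motifs were present at 35.5% of WT and 33.9% of Mbnl1 KO antisense tags, below the 39.8% of the tiles. The antisense windows were 43.9% and 45.3% GC, against 42.8% in the tiles. A match of letters is a description of the sequence and not a binding site.

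Short repeats of the motif were part of this. The 8-mers present in at least 0.5% of antisense tags of either table and at least 20 times denser there than in the antisense regions were collected. Because they were chosen from the antisense tags of these same tables, their shares are given as a description. Most passed these limits in 1 table alone, so a difference between the tables was largely built into the choice and nothing is read from it. Of the 23 that held a motif, 19 passed only in Mbnl1 KO and 4 in both tables, while of the 26 purine 8-mers described next, 21 passed only in WT and 5 in both. Those holding a motif (23 8-mers) spelled out repeats such as TTGCTTGC, GCTGCTGC and TCTGCCTC. TCTGCCTC was found in 1.13% of WT and 4.204% of Mbnl1 KO antisense tags, and was 12.0 and 51.1 times denser than in the regions. TTGCTTGC was found in 0.647% and 1.22%, at 38.7 and 77.8 times the density of the regions. At least 1 of the 23 was present in 5.12% of WT (4.87 to 5.37) and 11.9% of Mbnl1 KO antisense tags (11.6 to 12.2). They were present in 8.34% and 10.2% of gene-strand tags and in 5.72% and 12.2% of intergenic tags as well. A cluster opposite an intron of Apoh, which encodes the plasma protein apolipoprotein H, shows such a repeat.
Apoh (chr11:108265458-108265480, minus, capitals mark the motifs): ctTGCTtctTGCTctctTGCTgc
This cluster had 5 WT and 23 Mbnl1 KO tags, and the sequence had 19 exact copies in the assembly.

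Purine 8-mers formed another family, found in 4277 WT and 1582 Mbnl1 KO antisense tags, beside 1519 and 5296 for the motif family. It comprised 26 8-mers with at least 6 purines and at least 2 each of A and G. The densest was AGGACGAT, found in 1.49% of WT and 0.684% of Mbnl1 KO antisense tags, 343 and 147 times its density in the regions. At least 1 of the 26 was present in 14.4% of WT (14.0 to 14.8) and 3.56% of Mbnl1 KO antisense tags (3.39 to 3.73). On the gene strand they were present in 5.67% and 1.33% of tags, and between genes in 9.98% and 2.02%.

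The other 10 collected 8-mers belonged to neither family. Among them AAAAAAAA was found in 4.78% of WT and 3.16% of Mbnl1 KO antisense tags, and CCCCCCCC in 0.495% and 0.873%.

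Extending AGGACGAT by the base that most antisense tags carried next gave the following run, in which capitals mark the starting 8-mer.
Purine run: gagggAGGACGAT
Apart from its first base, this run has the letters of an RNA linker ligated to the 5′ end of fragments in published HITS-CLIP protocols. The linkers used for these libraries are not given in the sources used here, and the part of linker sequence in these tags was not tested. With tags of both families left out, 44.1% of WT (43.5 to 44.7) and 48.8% of Mbnl1 KO antisense windows (48.3 to 49.3) held a motif, above the 37.3% of the tiles. Tags of the motif family hold a motif by definition, so their removal lowers these shares. With only the purine family left out, the shares were 47.4% in WT and 55.1% in Mbnl1 KO.

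Clusters of at least 20 pooled tags numbered 769 over the genome, of which 37 were antisense. The 37 fell to 9 when only tags of at least 2 reads were used and to 13 when each 5′ end was counted once per table. They held 1.59% of WT and 2.22% of Mbnl1 KO antisense tags. A Mbnl1 KO/WT ratio of at least 2 was reached by 11 of the 37 antisense clusters, against 46.2% of all clusters. A ratio of at most 0.5 was found for 13 of the 37, against 3.90% of all clusters. Scaled to all tags, these counts were 15 and 7 of 37, against 74.8% and 1.82% of all clusters. With raw tags they were 19 and 4, against 90.5% and 1.30%. Scaled to retained tags, the median ratio was 1.03 over the antisense clusters and 1.92 over all clusters. Over the antisense clusters it was 1.54 scaled to all tags and 2.14 with raw tags. Opposite to the tag lay an intron at 32 clusters and an annotated exon at 5.

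The 37 clusters fell apart by their sequence. In 14 of them at least 50% of the tags held a purine 8-mer, and these had 205 WT and 138 Mbnl1 KO tags. The remaining 23 clusters had 266 WT and 848 Mbnl1 KO tags. Since most of the purine 8-mers had passed their limits only in WT, low ratios were favoured by the way the 14 were set apart, and no difference in ratio is read from this division. Opposite Tmem132c a cluster outside the 14 had 28 WT and 4 Mbnl1 KO tags and a purine-rich sequence that holds none of the 26 8-mers. The 14 purine clusters had 20 to 31 tags each, and every one of their commonest tags had a single copy in the assembly. Of the 23 others, 17 had a further exact copy of their commonest tag elsewhere, 14 had a copy inside an annotated gene on that gene's strand, and 8 shared a copy with another antisense cluster.

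**Figure D5:**
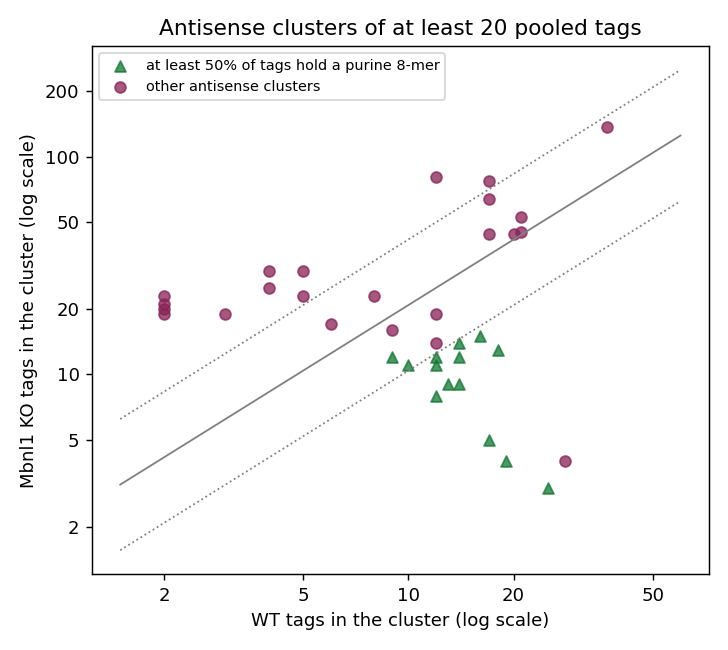
Mbnl1 KO tags (y axis, log scale) against WT tags (x axis, log scale) in the 37 antisense clusters, with triangles for the 14 clusters in which at least 50% of the tags hold a purine 8-mer and circles for the other 23. The solid grey line marks a ratio of 1 after scaling to retained tags and the dotted lines ratios of 2 and 0.5. Over all 37 clusters 11 have a ratio of at least 2 and 13 of at most 0.5 under this scaling, and the place of the triangles is favoured by 8-mers that mostly passed their limits only in WT.

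The 10 largest clusters all lay opposite introns and none was a purine cluster. The largest, opposite Gnb1l (a gene for a WD-repeat protein), spanned chr16:18533282-18533424 on the minus strand and had 37 tags in WT and 137 in Mbnl1 KO (ratio 1.78, 1.23 to 2.63). It rested on 93 distinct tag positions and 30708 reads. The cluster opposite Atf2, which encodes a stress-responsive transcription factor, had 17 tags in WT and 77 in Mbnl1 KO (ratio 2.18, 1.27 to 3.93). Zc3h7a, which encodes a zinc finger protein, had 2 clusters. The larger had 12 WT and 81 Mbnl1 KO tags (ratio 3.24, 1.76 to 6.53) and its commonest tag lay 123 nt past the end of the nearest gene on its strand. The smaller had 21 and 45 (1.03, 0.601 to 1.82).

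The next clusters were similar in size. Itga9, which encodes an integrin subunit, had 17 WT and 64 Mbnl1 KO tags opposite (1.81, 1.05 to 3.29). Jarid2, which encodes a Polycomb cofactor, had 21 and 53 (1.21, 0.719 to 2.12). Fgfr2, a fibroblast growth factor receptor gene annotated here over 3009 kb, had 20 and 44 (1.06, 0.610 to 1.89). Arhgap21 had 17 and 44 (1.24, 0.696 to 2.32). Scaled to all tags, the ratio was 1.82 at Jarid2 (1.08 to 3.18), 1.59 at Fgfr2 (0.915 to 2.84) and 1.87 at Arhgap21 (1.04 to 3.48). At the smaller Zc3h7a cluster it was 1.54 (0.901 to 2.73). With raw tags the ratios of these clusters were 2.52, 2.20, 2.59 and 2.14 in that order. These intervals cover counting error within 1 merged table per genotype and call no difference between genotypes.

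The sequences printed for these 8 clusters are, from general knowledge, those of 18S ribosomal RNA (Gnb1l) and 28S ribosomal RNA (the other 7), abundant RNAs of all cells. No 18S or 28S sequence was used here, so these matches were not checked. What could be counted were the exact copies in mm9. The Atf2 and larger Zc3h7a sequences each had a copy at the other's cluster, with 5 and 7 copies in all, and the Arhgap21 sequence had 13. A copy of the Atf2 sequence and of both Zc3h7a sequences lay within C230081A13Rik. The Gnb1l sequence had 2 copies, and those at Itga9 and Fgfr2 had 1. The larger Zc3h7a sequence also had a copy at the Itga9 cluster. So did the commonest tag of a cluster opposite Luzp1, which had 3 copies.

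The Manba and Cadps2 clusters had copies in annotated genes that could be named. The tag opposite Manba, the gene for the lysosomal enzyme beta-mannosidase, had 2 copies, and the other was in Oaz2, which encodes an antizyme that restrains polyamine synthesis. This cluster had 5 WT and 30 Mbnl1 KO tags (2.88, 1.11 to 9.52) and lay 554 nt past the end of a gene on its strand. A second cluster opposite Manba, with 2 WT and 21 Mbnl1 KO tags, also had its other copy in Oaz2. The tag opposite Cadps2, a gene for a vesicle priming protein, had 46 copies, of which 45 were in annotated rRNA genes. It had 4 WT and 30 Mbnl1 KO tags (3.60, 1.27 to 14.1). Further clusters had their only other copy in Psap (opposite Tbc1d9, 8 WT and 23 Mbnl1 KO tags), Got2 (opposite Gm10874, 4 and 25) and Lrrc58 (opposite Skint6, 2 and 20). Whether these tags came from the antisense locus or from the gene with the copy cannot be told apart.

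Antisense tags were spread over many genes. At least 1 was found opposite 12459 of the 21540 genes (57.8%), in WT at 8845, in Mbnl1 KO at 10549 and in both tables at 6935. The median was 1 tag per gene over both tables, 1957 genes had at least 10 and 122 had at least 50. The 10 genes with the most antisense tags held 2.32% of the tags counted over genes. Across genes, antisense tags rose with the length of antisense region (Spearman correlation 0.80 over 21540 genes, which are not independent and share the libraries). The same correlation for gene-strand tags was 0.76.

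Of the 10 genes with the most antisense tags, 6 were very long and had no antisense cluster. They were Gm20388 (120 WT and 193 Mbnl1 KO tags over 3483 kb), Cntnap2 (63 and 109 over 2240 kb), Dmd (75 and 81 over 2256 kb), Lrp1b (51 and 78 over 2057 kb), Dlg2 (63 and 62 over 1945 kb) and Ptprd (52 and 70 over 2266 kb). Dmd encodes dystrophin, which links the cytoskeleton of muscle fibres to the matrix, and its antisense density of 0.0691 pooled tags per kb was near the 0.0771 of all regions. Opposite Fgfr2 there were 97 WT and 157 Mbnl1 KO tags, and its antisense cluster had 64. The other 3 had most of their tags in the clusters described above, with 174 tags beside 176 in all at Gnb1l, 93 and 66 beside 167 at Zc3h7a and 81 beside 124 at Itga9. Gnb1l and Zc3h7a had only 6 and 8 pooled tags on their own strand.

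The 10 genes with the most antisense tags per kb had antisense regions of 0.686 to 39.7 kb. Gm17684 had 4 WT and 10 Mbnl1 KO antisense tags over 0.686 kb. BC037034 (annotated as 2 overlapping genes) had 10 and 14, Kcnk16, a potassium channel gene, had 18 and 13, and Cfl1, which encodes the actin-severing protein cofilin, had 8 and 8. Of these tags 21 of 24, 31 of 31 and 15 of 16 held a purine 8-mer, as did all 10 at 1190007I07Rik, which had 10 WT and 0 Mbnl1 KO tags. Purine tags were absent at Gm17684, Zc3h7a, Gm12353 (3 and 7), Kcna7 (1 and 17) and Chrac1 (7 and 16). Kcna7 encodes a voltage-gated potassium channel expressed in muscle, and its 17 Mbnl1 KO tags against 1 WT tag gave a ratio of 8.17 with an interval from 1.28 to 341. It entered this list through its Mbnl1 KO tags, so a high ratio was favoured by the choice and nothing is read from it.

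Opposite the genes that the study names for CLIP or splicing, antisense tags were few. The 10 genes of its CLIP bar chart had 41 WT and 48 Mbnl1 KO antisense tags over 1209 kb, against 628 and 2469 on the gene strand. Their antisense share was 6.13% in WT (4.43 to 8.22) and 1.91% in Mbnl1 KO (1.41 to 2.52), and their antisense density was 33.9 and 39.7 tags per Mb, beside 30.9 and 46.2 over all regions. Adk, the adenosine kinase gene, had the most, with 17 WT and 21 Mbnl1 KO antisense tags. Ttn, which encodes the giant sarcomere protein titin, had 8 and 9 opposite its 295 and 1167 gene-strand tags. Ank1 (ankyrin) had 6 and 6, and Mbnl1 itself had 7 and 5 against 99 and 450 on its strand. Ldb3, a Z-disc protein gene, had 0 and 3, Lnp 1 and 2, Tlk2 1 and 2, and Atp2a1, the calcium pump gene, 1 and 0. Clcn1 and Pdp1 had 0 in both tables.

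The 8 other splicing targets had 22 WT and 37 Mbnl1 KO antisense tags, a share of 9.87% (6.29 to 14.6) and 5.32% (3.78 to 7.26). Nfix, a transcription factor gene, had 6 and 11, of which 7 of 17 held a purine 8-mer. Mbnl2, the gene of the immunopurified protein, had 3 and 8, and Abi2 had 3 and 7. Ryr1, the calcium release channel gene, had 4 and 3, Csda 1 and 5, Bin1 2 and 2, and Tnnt3 3 and 1. Cacna1s had 0 in both tables.

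Opposite gene groups of muscle the antisense density was far below the density on their own strand. Opposite 27 sarcomere genes there were 48 WT and 64 Mbnl1 KO tags, or 39.2 and 52.3 per Mb, while their own strand held 826 and 3169 per Mb. Neb, which encodes the thin filament ruler nebulin, had the most with 13 and 9, followed by Ttn and by Mybpc1 with 5 and 10. Opposite 16 genes of excitation-contraction coupling there were 38 and 54 tags, or 27.5 and 39.1 per Mb, with Trdn (triadin) at 12 and 18, Cacna2d1 at 11 and 17 and Scn4a at 5 and 4. Opposite 17 genes of splicing regulators there were 72 and 87, or 34.4 and 41.6 per Mb. Rbfox1 had 23 and 26, Celf2 had 15 and 13 and Mbnl3 had 5 and 8. Skeletal muscle markers (9 genes) had 24 and 23 antisense tags, or 48.9 and 46.8 per Mb, and markers of other cells (10 genes) had 17 and 25, or 36.05 and 53.0 per Mb.

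A last list held 18 loci for which antisense or opposite-strand transcripts are known, such as Kcnq1, whose imprinted domain is covered by a long antisense RNA. They had 33 WT and 43 Mbnl1 KO antisense tags, or 42.0 and 54.8 per Mb, against 30.9 and 46.2 over all regions. Kcnq1 had 15 and 24 antisense tags opposite 8 and 9 gene-strand tags, Zeb2 had 6 and 7, and Bdnf had 3 and 4. These are small counts given without an interval, and Kcnq1 carried a large part of them. No enrichment at these loci is read from them. Bases with an annotated gene on the antisense strand were outside the regions, so annotated antisense RNAs of these loci were not counted.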

How the data were processed

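Mbnl2 HITS-CLIP was analysed in quadriceps of WT and Mbnl1 KO mice. Per the labels and the methods, the authors discarded poor reads, used BWA (no version given) with mm9, dropped presumed PCR duplicates and merged 3 mice per genotype. Beside each tag the deposited table gives a read count, the reads that the authors had collapsed into that tag, without normalization. The tables held 343554 WT and 476543 Mbnl1 KO tags, of which 337354 and 472915 were on assembled chromosomes. Tags elsewhere were not analysed here, and undetermined reference bases counted as a single base.

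Tags were assigned by midpoint and divided by the tags left after the single-base rule, with Python 3.11.15, numpy 2.4.6, pandas 2.3.3, scipy 1.17.1 and matplotlib 3.10.9. Copies are exact matches on either strand. The members and gene lists were chosen with earlier results of these data known. Genes were named as the 10 largest clusters, the 10 genes with most antisense tags, the 10 with most per kb (at least 10 tags), 18 genes of the paper and the top 3 of each list. Other genes were chosen after their values were seen. Alternatives varied the tag filters, regions, scaling and cluster minimum. Clustering and intervals were tested on simulated data drawn with counting error only. The simulation held no spread between mice, so it says nothing about that spread.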

Additional observations from a re-analysis of the deposited data

How the results depend on the processing

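The antisense share was above that of Mbnl1 KO in WT under all 14 alternatives. Leaving out no tag for its bases gave 43.6% and 25.1% (WT and Mbnl1 KO) with a ratio of 0.688. Leaving out tags with at least 60% of 1 base gave 31.2% and 20.1%, and at least 50% gave 28.5% and 18.5% with a ratio of 0.735. At least 2 reads gave 19.9%, 12.6% and 0.695. At least 25 nt gave 16.6%, 9.48% and 0.614. Counting identical tags once gave 33.8%, 24.03% and 0.783, and the same 5′ end once 33.8%, 24.5% and 0.798. Leaving out 10 kb downstream of genes gave 34.3%, 22.1% and 0.706, and 10 kb on both sides 34.4%, 22.2% and 0.707. Without antisense clusters the shares were 32.6% and 20.5%. Chosen after the data were seen, leaving out purine tags gave 30.9%, 20.5% and 0.750, and leaving out both families 31.5%, 20.1% and 0.732. The ratio turned to 1.08 scaled to all tags and 1.498 with raw tags, denominators that count the single-base tags or use no scaling, and was 0.535 scaled to the gene strand. With these denominators, chosen after the data were seen for these values, the ratio also turned between genes (1.23 and 1.70) and beyond 50 kb past a gene end (1.04 and 1.44). The 37 clusters became 141 with at least 10 tags, 8 with at least 50, 9 with at least 2 reads per tag, 13 with each 5′ end counted once and 23 without purine tags. Of the antisense clusters, 11 had a ratio of at least 2 and 13 of at most 0.5, against 15 and 7 scaled to all tags and 19 and 4 with raw tags, also chosen after the data were seen. Causes were not tested. The alternative on soft-masked tags was not run because the genome used here was not masked. No paired analysis was possible because the mice of each genotype were merged into 1 table.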
